A study of Mus musculus with 6 samples.

Results

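The cells described here are C1q-high macrophages of the mouse lymph node with fewer than 3 of 7 transcripts used to mark tingible body macrophages (TBMs). They were chosen from single-cell RNA counts by a gate of 15 genes. A gated cell held at least 20 unique molecular identifiers (UMIs, each standing for 1 captured transcript) of C1qa, C1qb and C1qc together, and fewer than 3 of the 7 TBM genes Pf4, Itga9, Ccl7, Stab1, Tmem37, C3ar1 and Mertk had a UMI in it. It also held no UMI of the sinus macrophage genes Marco, Cd209b and Il22ra2, and none of the inflammatory genes Nos2 and Saa3. Of 12139 kept cells, 1204 passed this gate. The measured values of the 15 genes chose the cells, so those genes are described and were not tested.

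CD11b hi TOM+ cells (CD11b is a myeloid integrin subunit, TOM the red reporter protein) were sorted from the inguinal lymph nodes of 4 CD169Tom mice, 2 unimmunized and 2 immunized, 9 days after immunization. All 4 mice carried Cd169Cre/+ and LSL-Tdtomato, on a C57BL/6J background. The study's mice were over 6 weeks old and of both sexes, while the sex of each of these 4 mice and the antigen given to the 2 immunized mice are not given in the sources used here. Each mouse was stained with 1 hashtag antibody and with 6 antibodies carrying sequence tags, and the pooled cells were split over 2 droplet captures. The Cre sits in Siglec1, the gene of CD169, so the label follows a lineage with a history of Siglec1 transcription and says nothing of whether CD169 is still made.

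C1q is the recognition part of the first complement component and is assembled from A, B and C chains. Unlike most complement proteins it is made largely by macrophages and dendritic cells, and it binds dying cells and immune complexes and so aids their uptake. TBMs are the macrophages of the germinal center that engulf apoptotic B cells. Mgl2, which the gate did not use, encodes a galactose-type lectin (CD301b) of some dermal dendritic cells and macrophages. It was listed as a marker of these cells with earlier results of these data known, so its tests are not independent support.

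A cell was assigned to a mouse by the tag of its hashtag antibody, and the 4 tags are shown because every comparison between mice rests on telling them apart. Hashtags 1 and 2 marked the unimmunized mice 1 and 2, and hashtags 3 and 4 marked the immunized mice 1 and 2.
Hashtag 1: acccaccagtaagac
Hashtag 2: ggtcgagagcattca
Hashtag 3: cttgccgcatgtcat
Hashtag 4: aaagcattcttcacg

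Of 18662 barcodes, 1242 were left out because their 621 sequences occurred in both captures, 1425 because over 25% of their UMIs were mitochondrial, and 3861 of the rest because no hashtag held at least 80% and at least 10 of the hashtag UMIs. The first pair of reasons overlap. The kept cells numbered 2828 and 537 in unimmunized mice 1 and 2, and 4052 and 4722 in immunized mice 1 and 2. A kept cell of the gate held a median of 9576, 11069.5, 12463 and 14742 UMIs in the same order, against 5847, 6027, 9512 and 12281 in the other kept cells, so gated cells were deeper in each of the 4 mice and cells of immunized mice were deeper than those of unimmunized mice.

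Gated cells made up 0.884% of kept cells in unimmunized mouse 1 (25 cells, exact 95% binomial interval 0.573 to 1.30), 2.98% in unimmunized mouse 2 (16 cells, 1.71 to 4.79), 6.15% in immunized mouse 1 (249 cells, 5.43 to 6.93) and 19.4% in immunized mouse 2 (914 cells, 18.2 to 20.5). Both immunized mice lay above both unimmunized mice, and the 2 immunized mice lay far apart. The mean share was 12.8% ± 9.34 (SD, n = 2) in immunized and 1.93% ± 1.48 (SD, n = 2) in unimmunized mice, a difference of 10.8 percentage points, for which the exact two-sided permutation test gave p = 0.33, the smallest value that 2 mice against 2 allow. The gate asks for a fixed number of C1q UMIs, and depth moved with immunization. Asking instead for C1q to make up at least 0.2% of a cell's UMIs left a gap of 10.1 points between conditions, and leaving out immunized mouse 2 left 4.21. Intervals on cells cover counting error alone.

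The gated cells were the larger part of the C1q-high cells in 3 of the 4 mice. Cells with 20 or more C1q UMIs numbered 71, 30, 429 and 1538 in unimmunized mice 1 and 2 and immunized mice 1 and 2, and 35.2%, 53.3%, 58.0% and 59.4% of them were gated. C1q-high cells with the TBM set, which differ from the gate only in having 3 or more TBM genes, numbered 4, 4, 27 and 62. Cells with a sinus macrophage gene numbered 39, 9, 73 and 71, and cells with Nos2 or Saa3 numbered 3, 1, 80 and 491.

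**Figure D1:**
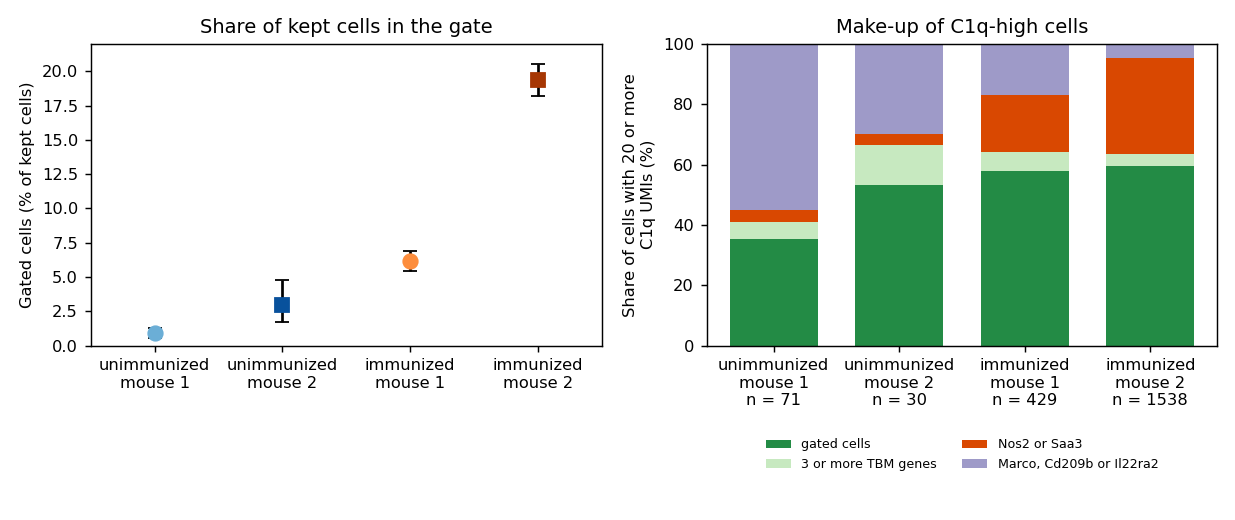
Left, gated cells as a percentage of kept cells in each mouse, with exact 95% binomial intervals. Right, the make-up of the cells with 20 or more C1q UMIs in each mouse. The gated share was 0.884% and 2.98% in the unimmunized mice and 6.15% and 19.4% in the immunized mice.

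In gated cells C1q UMIs ran from 20 to 527, with medians of 42, 47, 54 and 79 in the 4 mice. The A and B chains dominated: C1qa held 43.1%, 46.5%, 39.8% and 39.2% of the C1q UMIs and C1qc held 14.1%, 11.9%, 17.5% and 19.4%. No step was seen at the lower edge, since 13 cells held 19 C1q UMIs and 18 cells held 20. None of the 7 TBM genes was detected in 784 gated cells, 1 in 293 and 2 in 127, while 60 cells just outside the gate had 3. Of the TBM genes, Mertk, a receptor kinase for apoptotic cells, was detected in 13.7% of gated cells and C3ar1, the receptor of the complement fragment C3a, in 11.7%. Pf4, a platelet and macrophage chemokine, was detected in 1.25%. Marco, Cd209b, Il22ra2, Nos2 and Saa3 were at 0 by the rule.

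Free RNA was gauged in 991 T cells of the same captures (at least 3 UMIs of T cell genes, no Csf1r or Cd68). They held 78.8 CPM (UMIs of a gene in each 1000000 UMIs of the class) of C1q against 6524 CPM in gated cells, and the highest C1q count in any of them was 11.

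The label was checked against genes that the gate did not use, of which Mgl2 had been picked as a marker from these data. Lyz2, encoding the lysozyme of macrophages and monocytes, had a UMI in all 1204 gated cells but also in 98.5% of the T cells, so its detection tells nothing, and its level is given instead: 22463 CPM in gated cells and 1078 CPM in T cells. Itgam, which encodes CD11b, was detected in 65.8% of gated cells (109 CPM) and 3.53% of the T cells (6.49 CPM). Csf1r, the receptor of the macrophage growth factor CSF1, was detected in 98.3% of gated cells (439 CPM) and Cd68 in 93.9% (293 CPM). Since the T cells had been chosen to lack these last genes, their background was read in 1347 cells with the same T cell UMIs and under 20 C1q UMIs, with or without Csf1r and Cd68, where the shares were 20.3% and 13.6% (80.5 and 36.4 CPM). Mgl2 was detected in 45.1% of gated cells (28.0%, 18.8%, 34.1% and 49.0% by mouse, median depth 14167 UMIs), against 1.31% of the T cells (median depth 5974). After every cell was thinned to 1000 UMIs, Mgl2 was seen in 7.68%, 6.46%, 9.78% and 17.2% of gated cells, in 2.07%, 1.18%, 2.49% and 4.79% of the other kept cells and in 0.237% of T cells. Gated cells had the higher share in each of the 4 mice, and Mgl2 was not seen in each gated cell before or after thinning. The thinning left out 11 other kept cells and no gated cell. Siglec1 was low, at 7.33, 5.46, 12.3 and 26.1 CPM, and the reporter transcript was detected in 7.81% of gated cells. After the thinning the reporter was seen in 0.128%, 0%, 0.372% and 0.621% of gated cells by mouse. Other kept cells had it in 0.304%, 0.297%, 0.540% and 0.589%, and T cells in 0.0947%.

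Markers of lymphocytes, neutrophils and sinus macrophages were low but not absent in gated cells. Those of classical monocytes were abundant: 8 genes, led by Plac8, summed to 2073, 3014, 3981 and 3613 CPM. In the other kept cells these monocyte genes summed to 2342, 2863, 5872 and 5139 CPM. The 11 T cell markers summed to 132, 21.8, 26.5 and 14.0 CPM, with Trbc2 the most abundant. The 11 B cell markers summed to 260, 251, 219 and 113 CPM, led by Ighm, and the 9 natural killer (NK) cell markers to 7.33, 10.9, 90.3 and 9.08 CPM, led by Gzma. Each marker of these 3 lists had a UMI in some gated cell. Of 11 neutrophil markers, which summed to 65.9, 49.1, 73.8 and 89.1 CPM with Csf3r on top, Ly6g was at 0. Of 9 sinus macrophage markers, which summed to 7.33, 5.46, 32.2 and 29.0 CPM with Siglec1 on top, Cd209f, Cd209g and Vsig4 were at 0. The part of these transcripts in the results was not tested.

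To ask which genes set gated cells apart, UMIs were summed per mouse over gated cells and over the other 10935 kept cells, and 12117 genes outside the gate were tested by quasi-likelihood in edgeR, with p-values adjusted after Benjamini and Hochberg. The fit on condition and cell class alone called 0 genes (0%) at an adjusted p of 0.05, with a lowest adjusted p of 0.0542 and 2244 genes at an unadjusted p under 0.05, while DESeq2 called 676. The 2 libraries of a mouse come from the same animal. With the mouse as a block, 450 genes (3.71%) were higher and 581 (4.79%) lower in gated cells, and the genes named here are taken from this blocked fit. Robust dispersions with the block called 1121 genes and voom with limma and the block called 383; without the block each called 0. Without unimmunized mouse 1 the blocked count was 325.

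Mgl2 had been picked as a marker of these cells from these data, so its rank is not independent support. Among genes with a mean of at least 50 CPM and the same direction in all 4 mice, Mgl2 had the largest difference toward gated cells in the blocked fit. It stood at 121, 126, 133 and 274 CPM in gated cells and at 41.4, 19.3, 46.1 and 78.3 CPM in the other kept cells of unimmunized mice 1 and 2 and immunized mice 1 and 2. The highest other value lay below the lowest gated value. The log2 fold change was 1.92 ± 0.16 (SE, 4 of 4 mice, edgeR adjusted p = 5.76e-06). Axl, a receptor kinase for apoptotic cells that is related to Mertk, followed with 341, 213, 173 and 132 CPM against 50.7, 73.2, 57.9 and 69.3 (log2 1.85 ± 0.17, adjusted p = 1.09e-05). Cd81, a tetraspanin, Pltp, a phospholipid transfer protein, and Acp5, a lysosomal acid phosphatase, were higher by log2 1.79, 1.64 and 1.63. Of the marker lists of other cells, 11 of 11 T cell, 8 of 9 NK cell, 8 of 11 B cell and 7 of 10 neutrophil genes tested were lower and 0 higher. Over all genes tested, 4.79% were lower and 3.71% higher. Within the same filter, the 10 lowest genes included S100a8 and S100a9 of neutrophils, Gzma and Nkg7 of cytotoxic cells, and Cd3g and Cd3d of the T cell receptor complex, at log2 -5.45 to -3.76. The other kept cells held T cell markers at a summed 2379, 1480, 386 and 127 CPM, so this contrast also carries lymphoid cells, and more of them in unimmunized mice.

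A second comparison was therefore restricted to other kept cells with a Csf1r UMI and no UMI of 8 lymphoid genes, together with the 97 C1q-high cells with the TBM set whatever their lymphoid UMIs (576, 156, 1794 and 2603 cells in all). Gated cells were not purged of lymphoid UMIs. It was added after the first results had been seen, and the 9 genes that chose these cells were left out of its tests. Without the block 0 genes passed edgeR's test (1039 at an unadjusted p under 0.05). With the block, 93 of 10541 genes (0.882%) were higher and 211 (2%) lower in gated cells, and 205 of these 304 were also called against all other kept cells, each in the same direction. With the immunized mice alone and the block 74 genes were called, and 49 of the 304 were among those called. The unimmunized gated libraries are small: they hold 25 and 16 cells (273000 and 183131 UMIs, against 3168796 and 13772940 in immunized mice 1 and 2).

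Mgl2 and Cd72 were among the 93 genes higher in gated cells than in these Csf1r-positive cells. Mgl2 stood at 101, 29.0, 53.1 and 80.7 CPM in the Csf1r-positive others, below its gated level in each mouse (log2 1.19 ± 0.19, adjusted p = 0.0037). Cd72, a C-type lectin-like receptor best known from B cells, was 80.6, 120, 77.9 and 38.8 CPM in gated cells and 14.5, 46.0, 24.5 and 16.4 CPM in the others (log2 1.67 ± 0.19, adjusted p = 0.000267). Gated cells held the B cell gene Cd79b at 25.6, 71.0, 36.0 and 16.7 CPM, which is not compared because the others were chosen for its absence, and Ighm stood at 154, 131, 101 and 46.3 CPM against 217, 174, 110 and 44.6. In the 18, 6, 165 and 668 gated cells without a UMI of the 8 lymphoid genes, Cd72 was at 58.2, 145, 48.8 and 39.7 CPM, above the others in each mouse. Mgl2 was at 151, 0, 144 and 295 CPM in the same cells, so in unimmunized mouse 2, with 6 such cells, it was below the others. Cd81, Acp5 and Axl were higher by log2 1.55, 1.43 and 1.18, and Celf4, an RNA-binding protein, by 0.86. Mrc1, encoding the mannose receptor CD206, was higher by log2 1.18 and the macrophage transcription factor Maf by 0.63. With the immunized mice alone Mgl2, Cd72, Acp5, Axl, Celf4 and Mrc1 passed as well, and Cd81 and Maf did not (adjusted p = 0.0665 and 0.121 by edgeR with the block).

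Of 26 lysosome genes tested, 9 were higher and 0 lower, with a median log2 of 0.30 beside -0.04 over all genes tested. Over all 10541 genes tested, 0.882% were higher and 2% lower. Besides Acp5 they included the proteases Ctsl (log2 0.79) and Lgmn (0.54), the hexosaminidase subunit Hexa (0.58) and the sphingolipid activator Psap (0.39). Of 11 genes of MHC class II presentation, through which peptides are shown to CD4+ T cells, 5 were higher and 0 lower (median 0.28). H2-Eb1, a class II beta chain, stood at 12421, 13897, 13290 and 11891 CPM in gated cells and at 7478, 8622, 8741 and 9637 CPM in the Csf1r-positive others. The 2 groups did not overlap (log2 0.58 ± 0.07, adjusted p = 0.000381). Cd74, the class II invariant chain, was higher by log2 0.36. With the immunized mice alone 1 of these 9 lysosome calls (Acp5) and 0 of these 5 class II calls passed, although each of the 14 kept its direction.

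Most of the monocyte and dendritic cell genes that were called lay at the other end. The shares of all 10541 genes tested were 0.882% higher and 2% lower. Of 15 monocyte-derived macrophage and dendritic cell genes, 8 were lower and 3 higher: Mgl2, Clec10a (log2 0.60) and Fcgr2b (0.39). With the immunized mice alone 5 of these 11 calls passed again, Mgl2 and Clec10a among them, and Fcgr2b did not. Batf3, from the list of myeloid transcription factors, was higher too (0.54), and it did not pass in the immunized mice alone. Hp, encoding haptoglobin, stood at 11.0, 5.46, 49.5 and 22 CPM in gated cells against 128, 75.8, 383 and 199 CPM (log2 -3.35 ± 0.16, adjusted p = 1.04e-07), lower in each of the 4 mice. Of 8 classical monocyte markers, 5 were lower and 0 higher, among them Chil3, Ly6c2, which encodes a Ly-6C antigen, and Plac8 (log2 -2.71, -0.96 and -1.02). Ccr2 of the same list was not called, at 773, 825, 941 and 696 CPM in gated cells against 675, 622, 993 and 675 CPM. Plac8 remained abundant in gated cells, at 1026, 1731, 2372 and 2542 CPM. Of 8 nonclassical monocyte markers, 6 were lower and 0 higher, with Ace, the angiotensin-converting enzyme, at log2 -3.58. Of 12 dendritic cell markers, 5 were lower, among them the growth factor receptor Flt3 (-1.55) and the transcription factor Zbtb46 (-1.73). Cebpb, a transcription factor of monocytes, was lower by log2 1.19 in size, at 256, 147, 443 and 614 CPM against 736, 519, 775 and 969 CPM. Lsp1, an actin-binding protein of leukocytes, and Itgal, an integrin subunit, fell by 1.21 and 1.12 on the log2 scale. With the immunized mice alone, 4 of the 5 classical monocyte calls, 1 of the 6 nonclassical and 1 of the 5 dendritic cell calls passed again, as did Hp, Cebpb and Lsp1, while Chil3 and Itgal did not (edgeR adjusted p = 0.0725 and 0.0518).

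Of 26 type I interferon response genes tested, 10 were lower in gated cells than in Csf1r-positive others and 0 higher (median log2 -0.37), with Isg15 at -0.60, Ifit3 at -0.75 and Oas3 at -1.15. For this and the next list, the shares of all 10541 genes were 2% lower and 0.882% higher. The 10 called genes were lower in each of the 4 mice, and 0 of them passed with the immunized mice alone. Against all other kept cells the interferon list had 3 genes higher and 0 lower (median log2 0.18), beside 3.71% higher and 4.79% lower of all genes. The list as a whole was mixed: 24, 22, 20 and 18 of the 26 were lower in the 4 mice, and 4, among them Bst2 and Irf7, were higher in both immunized mice. Of 30 genes for the recognition and engulfment of apoptotic cells, 2 were higher, Axl and the lysosomal nuclease Dnase2a (log2 0.57), and 3 were lower, Lrp1 (-0.56), Cd47 (-0.35), which encodes a signal against engulfment, and Timd4, a phosphatidylserine receptor. For Timd4 both unimmunized gated libraries were at 0, so its fitted change is not given. Immunized mouse 1 had 1.89 CPM against 18.9, and immunized mouse 2 had 1.02 against 3.05. With the immunized mice alone only Axl of these 5 passed.

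**Figure D2:**
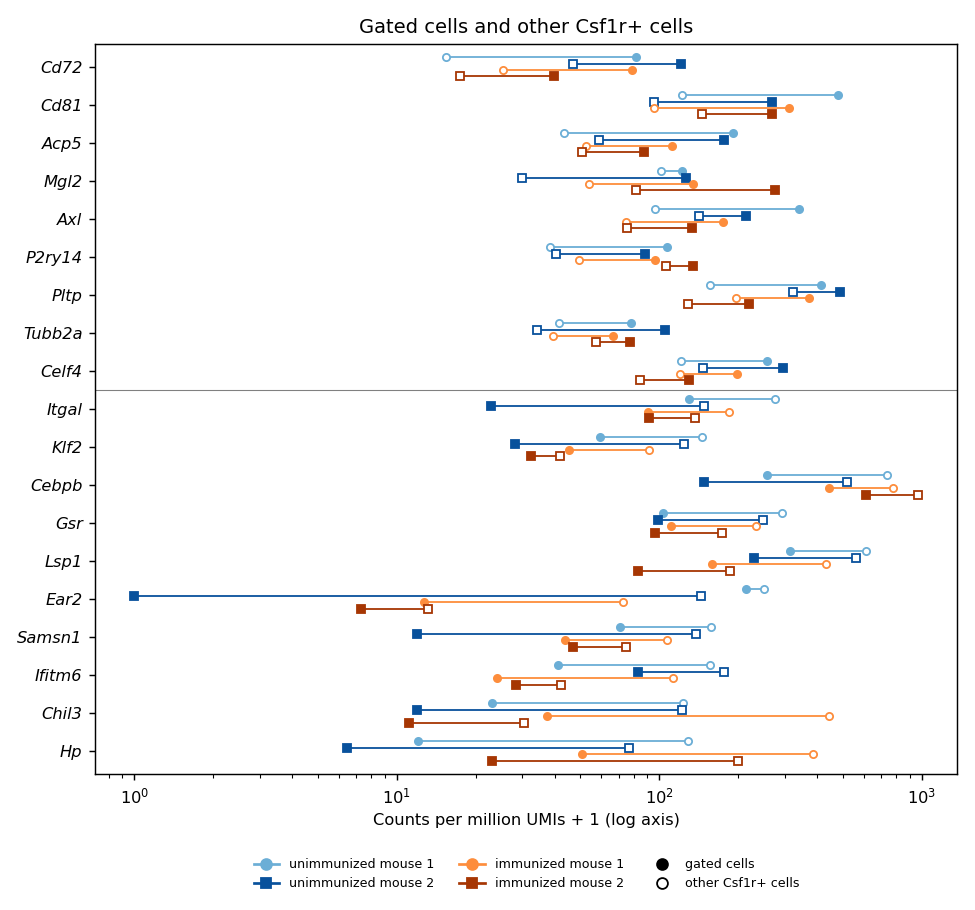
CPM + 1 on a log axis of 19 named genes in gated cells (filled) and in the Csf1r-positive others (open), 1 colour and marker per mouse, joined within a mouse. In each of the 4 mice the gated value lies to the right for the 9 upper genes (Cd72, Cd81, Acp5, Mgl2 among them) and to the left for the 10 lower genes (Hp, Chil3, Cebpb among them).

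The nearest cells were the 97 C1q-high cells with the TBM set. Their counts put a limit on this comparison, since the 2 unimmunized mice gave 4 such cells each (87587 and 38362 UMIs, where 1 UMI of the latter is worth 26.1 CPM). In unimmunized mouse 1, removing likely doublets left 3 of the 4 cells and 34037 of the UMIs, and the 4 cells held B cell markers at a summed 2329 CPM, against 600, 396 and 97.4 in the other 3 mice, and cell division genes at 2763 CPM, against 704, 772 and 933. Of 4710 genes tested without the block, edgeR called 2 (0.0425%), with 418 at an unadjusted p under 0.05, and DESeq2 called 39. Without likely doublets edgeR called 14, 4 higher and 10 lower in gated cells. Cd93, a C1q receptor-related membrane protein, stood at 3.66, 5.46, 15.1 and 14.2 CPM in gated cells and at 114, 182, 68.9 and 62.9 CPM in cells with the TBM set (log2 -3.51 ± 0.36, adjusted p = 0.00162). S100a4, a calcium-binding protein, stood at 1897, 2031, 1935 and 1313 CPM against 662, 678, 410 and 395 (log2 1.84 ± 0.19, adjusted p = 0.00162). Neither gene overlapped between the 2 cell classes. Both calls were lost without unimmunized mouse 1, without unimmunized mouse 2 and with capture 2 alone, where 0 genes passed.

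With the mouse as a block, 9 genes (0.191%) were higher and 21 (0.446%) lower in gated cells, and 23 of these 30 were also called in the immunized mice alone. The blocked fit of the immunized mice alone called 125 higher and 199 lower. The balance of this split was not stable, since higher calls outnumbered lower ones when unimmunized mouse 1 or 2 was left out. The 9 higher genes included Plac8, 1 of the 5 classical monocyte markers tested here. It was 1026, 1731, 2372 and 2542 CPM in gated cells against 160, 600, 956 and 1714 CPM (log2 1.55 ± 0.19, adjusted p = 0.00119). Mcemp1, a membrane protein of myeloid cells, was higher by log2 1.99, S100a6 by 1.47, Napsa, an aspartic protease, by 1.47 and Ly6i, a Ly-6 family gene, by 1.19. H2-DMb1, part of the class II peptide loader, was higher by log2 0.76, with an adjusted p of 0.0488 by edgeR and 0.259 with the immunized mice alone. The gated level of Plac8 thus lay between that of Csf1r-positive others and that of cells with the TBM set in each mouse.

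Among the lower genes, Apoe, encoding apolipoprotein E, stood at 1370, 928, 1403 and 425 CPM in gated cells and at 4829, 4431, 8551 and 1747 CPM in cells with the TBM set (log2 -2.12 ± 0.14, adjusted p = 3.42e-06). Selenop, a selenium carrier, was lower by log2 2.01 in size and Ms4a7 by 1.82 in size. The transcription factor Maf was at log2 -1.95, the protease Lgmn at -1.64, the ectoenzyme Cd38 at -1.75 and the adhesion molecule Vcam1 at -1.58. Of 6 tissue-resident macrophage genes tested, 3 were lower and 0 higher, with a median log2 of -1.70 beside 0.05 over all genes tested. Of all genes tested, 0.446% were lower and 0.191% higher. The engulfment list had no call among 20 genes tested, and the lysosome list had 1 lower among 25. The chemokine Ccl2 was at 0, 0, 37.2 and 17.5 CPM in gated cells against 11.4, 235, 106 and 70.8 CPM, and Ccl12, another ligand of the CCR2 receptor family, was at 11.0, 0, 53.0 and 26.0 CPM against 11.4, 1251, 135 and 115. Both were lower in each mouse, in unimmunized mouse 1 by less than the worth of a few UMIs.

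Mgl2 did not separate the 2 kinds of C1q-high cell. It was 103, 0, 255 and 251 CPM in cells with the TBM set, below the gated value in 3 mice and above it in immunized mouse 1, and its log2 difference of 0.29 ± 0.39 did not pass edgeR's test (adjusted p = 0.874). The macrophage gene Adgre1, which encodes F4/80, was at log2 -1.02 ± 0.23 (adjusted p = 0.0859) and Siglec1 at -1.42 ± 0.68 (adjusted p = 0.539). Axl, Pltp and Acp5, which were higher than in all other kept cells, were not called here either. Their log2 differences were -0.33, -0.29 and -0.09 (edgeR adjusted p = 0.744, 0.679 and 0.954). After thinning, Cd81 was seen in 34.2%, 20.1%, 22.4% and 18.5% of gated cells. In cells with the TBM set its shares were higher in each mouse, at 47.0%, 30.0%, 51.2% and 30.7%.

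**Figure D3:**
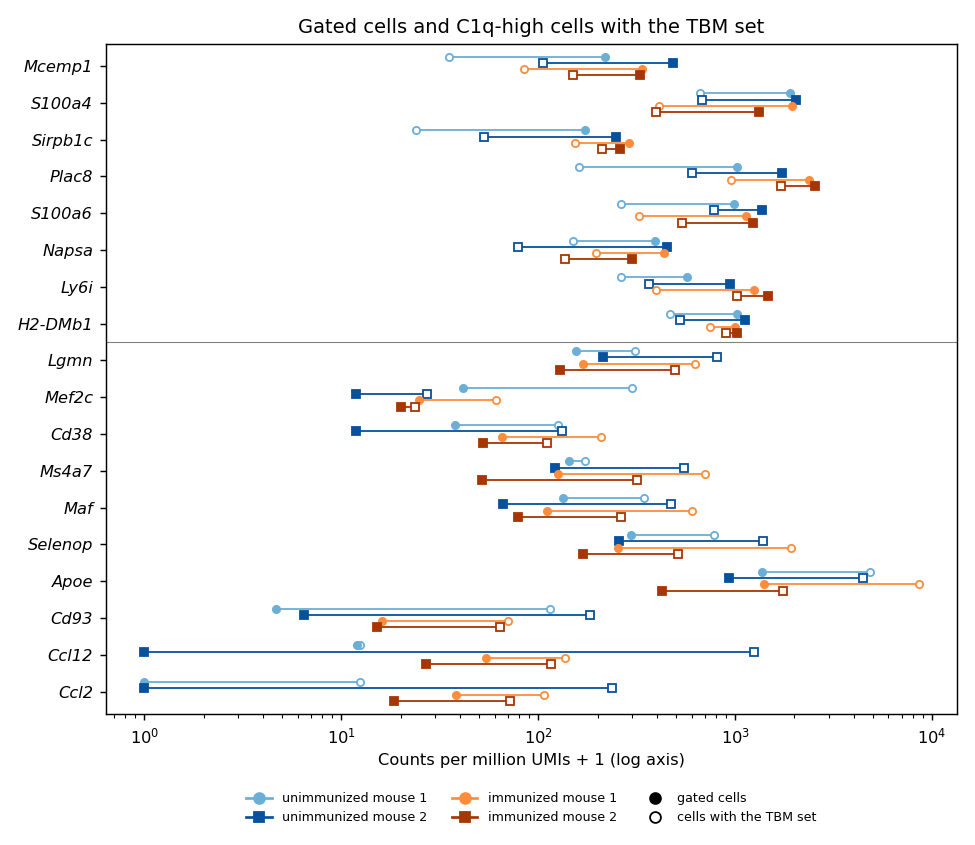
CPM + 1 on a log axis of the named genes in gated cells (filled) and in C1q-high cells with the TBM set (open), 1 colour and marker per mouse, joined within a mouse. S100a4 and Plac8 lie to the right and Apoe and Cd93 to the left in gated cells of each of the 4 mice.

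The antibody tags gave protein, measured apart from the gate. Values are centred log ratios over the 6 antibodies, averaged per mouse, and 4 mice cannot give a two-sided exact sign-flip p under 0.13. The other kept cells include lymphoid cells, more of them in unimmunized mice, and the antibodies were not compared with Csf1r-positive others. The part of this makeup in the differences from other kept cells was not tested. CD11c, an integrin of dendritic cells and some macrophages, was 1.56, 0.88, 1.05 and 1.5 in gated cells and 0.37, 0.59, 0.71 and 0.91 in the other kept cells, a mean difference of 0.60 ± 0.41 (SD, n = 4 mice, exact p = 0.13, adjusted 0.15). F4/80 was higher in all 4 mice as well, by 0.40 ± 0.29. CD169 was lower in all 4, by a mean of -0.71 ± 0.52. The gap was wide in unimmunized mice (-0.27 and -0.56 against 0.90 and 0.56) and narrow in immunized mouse 2 (-0.74 against -0.63). Its median raw counts were 8, 6, 4 and 4 in gated cells and 44, 28, 4 and 3 in the others, so they were not lower in immunized mice. CD68 and Ly-6g were lower in all 4 mice, by -0.38 and -0.26, with the same p. The paper describes CD68 as a late endosome marker. Its RNA went the other way in the blocked fit (log2 0.87 ± 0.11, edgeR adjusted p = 0.000118). Ly-6g had a median of 1 count in gated and in other cells of each mouse, and CD68 a median of 2 in both classes of immunized mouse 2. Ly-6c, a surface antigen of classical monocytes, split the mice (mean 0.35 ± 0.83, exact sign-flip p = 0.75). It was higher in gated cells of both unimmunized mice and lower in those of immunized mouse 2 (2.42 against 2.79). Immunized mouse 1 was nearly level (2.35 against 2.36), and its median counts ran the other way (82 in gated and 71 in other cells). C1q-high cells of unimmunized mouse 2 stood apart in this signal: gated cells had a median of 508.5 Ly-6c counts and its 4 cells with the TBM set 391, against 47 in its other cells, with 600, 507 and 168 antibody UMIs per cell in all.

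Against cells with the TBM set, F4/80 and CD11c were lower in gated cells of all 4 mice (-0.39 ± 0.18 and -0.19 ± 0.13) and Ly-6c was higher in all 4 (0.42 ± 0.21), each with an exact sign-flip p of 0.13 (adjusted 0.25, 6 antibodies). With capture 2 alone the Ly-6c difference was 0.0994. By mouse, gated Ly-6c was 1.71, 3.5, 2.35 and 2.42 against 1.57, 3.10, 1.68 and 1.95. CD169, CD68 and Ly-6g differed by -0.04 ± 0.38, 0.18 ± 0.38 and 0.03 ± 0.40, within the spread between mice.

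Whether gated cells differ between immunized and unimmunized lymph nodes was tested across 12117 genes, and edgeR called 0 (0%), with 1016 at an unadjusted p under 0.05. DESeq2 called 47 of 20375 (0.231%), 36 of them higher and 11 lower in immunized mice. Since 2 mice stood against 2, values are also given as overlap: of 2526 genes with a mean of at least 50 CPM, 549 (21.7%) were higher in both immunized mice than in both unimmunized mice and 561 (22.2%) lower. The median log2 difference over all genes tested was 0.14 with TMM scaling and 0 with library size alone. The gated cells were also deeper in immunized mice, which was not tested apart from immunization.

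Interferon-gamma response genes, summed over the list, stood higher in both immunized mice. Of 16 with a mean of at least 50 CPM, 13 were higher in both immunized mice, against 549 of all 2526 genes, and 0 were lower. Their median log2 was 1.67 beside 0.14 over those 2526 genes. Some reached this mean only through the immunized mice, such as Gbp5, Gbp4 and Igtp. In unimmunized mice 1 and 2 these stood at 36.6 and 0, 44.0 and 32.8, and 44.0 and 27.3 CPM. The count therefore describes the list and does not test it. The whole list of 27 genes summed to 2048 and 967 CPM in gated cells of unimmunized mice 1 and 2 and to 4138 and 6012 CPM in immunized mice 1 and 2. Cxcl9, a chemokine that draws T cells through CXCR3, was the most abundant of them in both immunized mice and stood at 370, 21.8, 1362 and 1620 CPM. Its groups did not overlap, yet the unimmunized values lay far apart (log2 2.99 ± 0.83, edgeR adjusted p = 0.526, DESeq2 0.12). Irf1, an interferon-induced transcription factor, was at 62.3, 43.7, 139 and 224 CPM. It did not pass in edgeR (adjusted p = 0.526) and passed in DESeq2 (adjusted p = 0.0218). The GTPase Ifi47 (80.6, 49.1, 186 and 231 CPM) and the chemokine Cxcl10 (58.6, 126, 425 and 328 CPM) passed in DESeq2 too (adjusted p = 0.00309 and 0.00436).

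The other kept cells had the same order of conditions. Their interferon-gamma list summed to 1522 and 1663 CPM in unimmunized and 2635 and 6114 CPM in immunized mice, and of 25 list genes the test of a different immunization change in gated and other cells, with the mouse as a block, called 1. That gene was Socs1, which restrains interferon signaling, at log2 3.12 (edgeR adjusted p = 0.0305), with 1 and 2 UMIs in the unimmunized gated libraries, and it did not pass without unimmunized mouse 1 (adjusted p = 0.39). An immunization difference in this list was therefore not shown to be particular to gated cells.

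**Figure D4:**
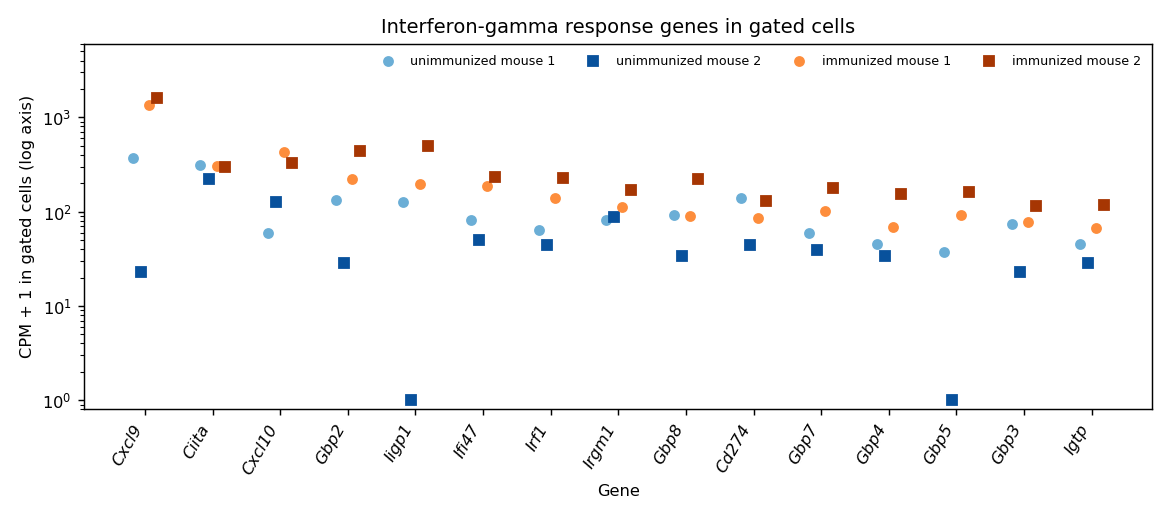
CPM + 1 on a log axis of 15 interferon-gamma response genes in gated cells, with 1 marker per mouse. Cxcl9 stands at 370 and 21.8 CPM in unimmunized and at 1362 and 1620 CPM in immunized mice, and the 2 unimmunized mice themselves differ by more in Cxcl9 than the 2 immunized mice do.

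Their promoters (250 bases before to 50 after the start site, RefSeq, GRCm38.p6) were searched for TTCNNNGAA, the core of the gamma-activated site, an element of interferon-gamma responsive promoters. The pattern is its own reverse complement, so a match counts for both strands. Of the 27 list genes, 16 have a promoter in the table, and 7 of these (43.8%) hold the pattern, against 9.55% of 27025 genes. They are Irf1, Gbp5, Gbp7, Igtp, Irgm2, Tgtp1 and Tgtp2, several of which are near copies that lie side by side, so they are not independent. The promoters of Irf1 (chr11:53769764-53770063, plus strand, pattern starting at -90 from the start site) and of Gbp5 (chr3:142496684-142496983, plus strand, 2 matches, the first at -245) are shown 5′ to 3′ as examples, with the pattern in capitals. A match describes letters and shows no binding.
Irf1: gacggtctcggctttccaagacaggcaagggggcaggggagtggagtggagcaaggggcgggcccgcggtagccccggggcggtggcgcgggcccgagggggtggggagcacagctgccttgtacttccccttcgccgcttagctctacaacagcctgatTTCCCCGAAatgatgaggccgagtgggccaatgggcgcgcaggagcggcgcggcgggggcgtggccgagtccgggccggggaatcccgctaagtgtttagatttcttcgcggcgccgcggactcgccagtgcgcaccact
Gbp5: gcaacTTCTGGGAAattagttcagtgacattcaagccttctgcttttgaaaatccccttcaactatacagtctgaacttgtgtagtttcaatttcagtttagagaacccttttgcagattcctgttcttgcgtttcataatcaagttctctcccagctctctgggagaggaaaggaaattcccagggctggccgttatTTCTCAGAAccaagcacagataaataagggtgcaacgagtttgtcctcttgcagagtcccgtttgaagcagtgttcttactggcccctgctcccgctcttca

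In other lists the counts are read against the 21.7% higher and 22.2% lower of all 2526 genes. The same cut on the mean applies, so these counts too describe the lists and do not test them. Of 12 inflammatory effector genes with at least 50 CPM, 8 were higher and 1 lower in both immunized mice (median log2 0.96), and of 13 type I interferon genes 8 were higher and 0 lower (0.52). Of 16 genes of MHC class I presentation, 6 were higher and 0 lower (0.54), and of 8 class II genes 2 were higher and 0 lower (0.18), a share of higher genes close to that of all genes. The complement genes C3 (322, 87.4, 617 and 638 CPM) and Cfb, the protease of the alternative pathway (172, 158, 536 and 373 CPM), did not overlap, and Cfb passed in DESeq2 (adjusted p = 0.0065) but not in edgeR (0.513).

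Cx3cr1, the fractalkine receptor of resident macrophages and monocytes, was at 319 and 257 CPM in gated cells of unimmunized mice and at 118 and 24.4 CPM in those of immunized mice. It was detected in 76.0%, 56.2%, 43.0% and 15.1% of gated cells, and its log2 difference was -1.93 ± 0.84 (edgeR adjusted p = 0.599, DESeq2 0.211). Hfe, which encodes the hemochromatosis protein of iron sensing, was at 136, 131, 58.7 and 51.3 CPM (log2 -1.14 ± 0.29, edgeR adjusted p = 0.513, DESeq2 0.023). Skint3 and the peptidase Dpp4 also lay lower in both immunized mice. Retnla, a secreted protein of alternatively activated macrophages, had 1282 CPM in unimmunized mouse 1, where all of its 350 UMIs came from 1 of 25 cells, and 0, 0 and 0.0726 CPM in the other mice.

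A test of the difference between the immunization change in gated and in other kept cells called 0 of 12117 genes (0%) without the block in edgeR, with 890 at an unadjusted p under 0.05, and 0 in DESeq2. With the mouse as a block, 6 genes (0.0495%) changed more toward higher and 31 (0.256%) more toward lower in gated cells, and this count went to 0 without unimmunized mouse 1, 17 without unimmunized mouse 2, 135 without immunized mouse 1 and 23 without immunized mouse 2. Cx3cr1 was among the 31, at 107, 90.8, 135 and 36.4 CPM in the other kept cells, a difference of changes of log2 -2.03 ± 0.22 (adjusted p = 0.00161). Maf, among the 6, held 132, 65.5, 109 and 78.3 CPM in gated cells and went from 285 and 158 to 62.3 and 54.2 CPM in the others (log2 1.72 ± 0.24, adjusted p = 0.014). The makeup of the other kept cells changed too, as their T cell markers show above, and its part in these calls was not tested. In the Csf1r-positive others alone, Cx3cr1 was at 250, 152, 170 and 34.8 CPM and Maf at 85.3, 57.2, 51.5 and 55.4 CPM.

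Gated cells were not uniform. Clustering on 992 variable genes without the gate genes gave 5, 8 and 12 clusters at 3 resolutions, and the 8 are described by their leading genes, with no test, because the same values formed them. Cluster 1, led by Ifitm1, Dab2 and Mif, held 334 cells, 328 of them from immunized mouse 2, and had the highest Mgl2 level (472 CPM). Cluster 4, led by Clec4b1 and Cx3cr1, held 13 of 25 and 12 of 16 gated cells of unimmunized mice 1 and 2, and 95 of 249 and 48 of 914 of immunized mice 1 and 2. Cluster 3 was led by Cxcl10 and Clec4e (191 cells), cluster 6 by the interferon-induced genes Ifit3, Ifit1 and Isg15 (108 cells), cluster 2 by Lyz1 (219 cells) and cluster 5 by H2-M2 and Fabp5 (124 cells). Since Cx3cr1 and Cxcl10 were themselves without overlap between conditions, the shares by mouse are not read as a difference between conditions.

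The smallest clusters carried genes of other cells. Cluster 7 (37 cells) was led by Retnla, Gzma and Ccl8, although gated cells held 351 Retnla UMIs in all, 350 of them from 1 cell, and it held NK cell markers at a summed 616 CPM, against 0 to 10.2 CPM in the other 7 clusters. Cluster 8 (23 cells, 19 of them from immunized mouse 1) was led by Ccl8, Pla2g2d and Cd5l, with B cell markers at a summed 859 CPM (81.5 to 279 in the other 7 clusters), sinus macrophage markers at 382 CPM, a median of 6497 UMIs and Mgl2 at 5.96 CPM. Neither was given a cell type name.

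**Figure D5:**
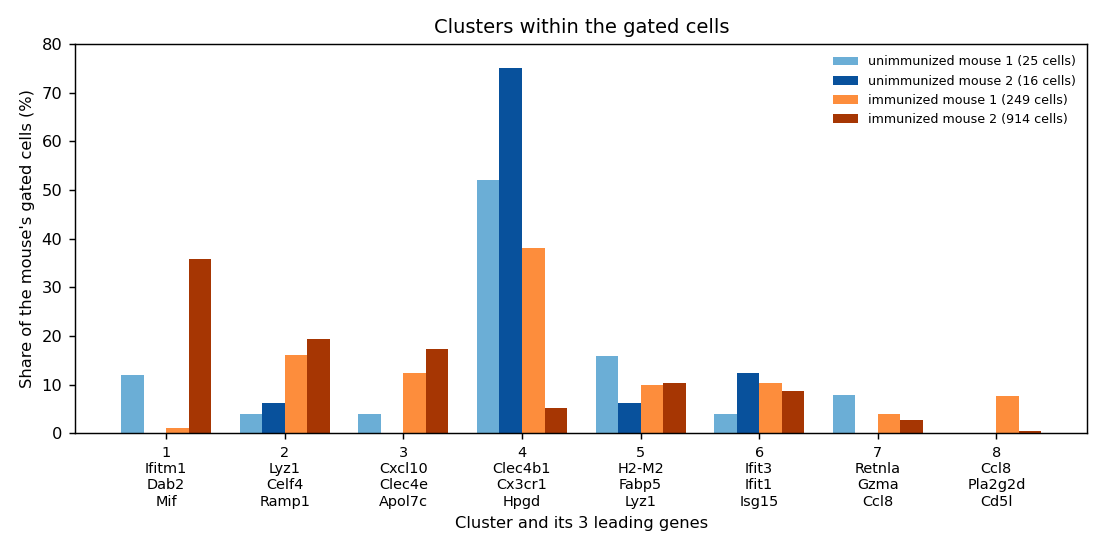
Share of each mouse's gated cells in each of 8 clusters, labelled with 3 leading genes, 1 bar per mouse (25, 16, 249 and 914 cells). Cluster 4 holds most gated cells of both unimmunized mice, and cluster 1 holds 35.9% of those of immunized mouse 2 and 1.20% of those of immunized mouse 1.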

How the data were processed

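Per the labels, transcript reads were mapped to mm10 and counted with Cell Ranger 4.0.0. The deposited matrices hold raw UMI counts, and the authors counted hashtag and antibody tags with CITE-seq-Count, also as counts. A barcode sequence found in both captures was left out. The members, gene lists and tests were chosen with earlier results of these data known. Counts were summed per mouse and class (TMM, filterByExpr; edgeR 4.0.16, DESeq2 1.42.0, limma 3.58.1, R 4.3.3). Same-numbered replicates do not pair mice, but the 2 classes of a mouse come from 1 animal, so the mouse was a block. The block was a listed alternative, and naming genes from it, since the fit without it called 0, 2, 0 and 0 genes, was decided afterwards. The Csf1r-positive comparison, immunized mice alone, blocked leave-one-out, robust and voom fits were also added after seeing the data. A few named genes are not reported here. The 15 gate genes took no part in counts of calls.

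Named genes are the 10 highest and 10 lowest called, with a mean of at least 50 CPM and 1 direction in all 4 mice, leaving out mitochondrial, ribosomal, Gm and Rik genes, plus called and abundant members of 35 lists and antibody genes. Between conditions, where none was called, the genes without overlap took their place. Vcam1 and Socs1 came from the lists. CPM are per library size and are not length-scaled. On simulated data the unblocked fit recovered 63% of genes changed by a log2 of 2 against other cells (11809 genes), 77% against cells with the TBM set (4150 genes), 38% between conditions (11770 genes) and 18% in the difference of changes (11776 genes), and of genes changed by a log2 of 1 it recovered 33%, 27%, 4% and 0% in the same order. Doublets were kept in the main analysis; removing the 829 and 705 cells with the highest Scrublet scores per capture was an alternative. Clusters used scanpy 1.11.5 and leidenalg 0.10.2 (15 components, 15 neighbors, resolution 0.6 chosen from 3 after seeing them). The kept count differs from the study's, whose hashtag threshold was not stated.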

Additional observations from a re-analysis of the deposited data

Results flagged for a closer look

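With the mouse as a block, 13 named genes had an immunization change in gated cells that differed from that in other kept cells (edgeR adjusted p under 0.05). The log2 differences of changes were 4.80 for the chemokine Ccl8, 2.21 for S100a10, 1.74 for the lectin Lgals1 and 1.72 for Maf. They were -2.03 for Cx3cr1, -1.49 for the scavenger receptor Msr1, -1.46 for March1, -1.36 for Tgfbi, -1.32 for Tifa, -1.30 for Clec4a2, -1.25 for Tctex1d2, -1.24 for Celf4 and -1.21 for Igsf6. Ccl8 stood at 0 and 10.9 CPM in gated cells of the unimmunized mice, so its difference rests on few UMIs. None of the 13 passed without the block, where the lowest adjusted p of any gene was 0.646. The makeup of the other kept cells also changed between conditions, with fewer T cell markers in immunized mice. Its part in these 13 differences was not tested.

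A further 269 barcodes passed the gate but were outside the kept cells, 27 of them because their sequence occurred in both captures and 242 because no hashtag was clear, so they belong to no mouse here.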

How the results depend on the processing

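The direction of the gated share, 10.8 points, held in all 12 alternatives run, from 4.21 to 17.4 points. Calls against other kept cells, 0 in the fixed fit, were 17 with C1q of at least 40 UMIs, 85 at 0.2% of UMIs, 75 without likely doublets, 4 and 3 in captures 1 and 2, 1410 without a filter on low counts, 676 by DESeq2 and 0 to 1151 leaving out a mouse. Calls against cells with the TBM set, 2 in the fixed fit, were 16 where no TBM gene was detected, 6 at a mitochondrial share of at most 10%, 14 without likely doublets, 5 and 0 in captures 1 and 2, 91 without a filter, 6 by library size alone, 39 by DESeq2, 0 in the immunized mice alone and 0 to 34 leaving out a mouse. Between conditions 286 genes were called without a filter, 47 by DESeq2 and 0 to 329 leaving out a mouse, and for the difference of changes 119 without a filter and 0 to 106 leaving out a mouse. A fit with 1 library left in an arm assumes that it varies like the others.

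The mouse as a replicate block, a pairing by animal, gave 1031 calls against other kept cells, 30 against cells with the TBM set and 37 for the difference of changes. Leaving out unimmunized mouse 1, unimmunized mouse 2, immunized mouse 1 and immunized mouse 2 in turn with the block gave 325, 889, 750 and 1074 calls, 174, 156, 19 and 32 calls, and 0, 17, 135 and 23 calls. With the block in the immunized mice alone there were 419 and 324 calls, against Csf1r-positive others 304 and, in the immunized mice alone, 74, with robust dispersions 1121 and with voom 383. Few residual degrees of freedom remain in these fits.

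Against cells with the TBM set, the CD169 difference turned to 0.011 where no TBM gene was detected, 0.0497 in capture 2 and 0.11 without unimmunized mouse 2, within a leave-one-out range of -0.201 to 0.11. Ly-6g turned to -0.0163 in capture 2, and to -0.084 and -0.0177 without unimmunized or immunized mouse 2 (leave-one-out up to 0.226), CD68 to -0.00135 without unimmunized mouse 1 (leave-one-out up to 0.284, and 0.468 with capture 2 alone), and against other kept cells Ly-6c to -0.0447 without unimmunized mouse 2 (leave-one-out up to 0.593). Against Csf1r-positive others, Gzma turned to 1.17 without and 0.92 with the block and 1.80 in the immunized mice alone, Nkg7 to 1.46, 1.03 and 1.96, Cxcr6 to 0.01 with the block, and Ptprcap, Cd3g and Cd3d to 0.14, 4.61 and 6.07 in the immunized mice alone with the block, where Cd3g and Cd3d had chosen those cells. The cause was not tested.

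The unimmunized gated libraries hold 25 and 16 cells and those with the TBM set 4 each, so genes near 1 UMI there cannot be ranked, and 2 mice a condition cannot give an exact p under 0.33.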
